A study of Bos taurus with 2 samples.

Results

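The genes described here are the kinases of the mitogen-activated protein kinase (MAPK) cascade and the dual-specificity phosphatases (DUSP) on 1 pair of bovine arrays. A probe was taken as a member when its gene name, or the current symbol of its RefSeq entry, began with MAPK, MAP2K, MAP3K, MAP4K or DUSP followed by a number. This choice used names only and gave 144 of 43653 probes, which covered 66 of 16959 named genes. They are 13 MAP kinases, 6 MAP2K, 15 MAP3K, 4 MAP4K, 24 DUSP and 4 further genes whose symbols begin in the same way, among them the scaffold proteins of the JNK branch.

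The study compared mammary gland of adult female Chinese Holstein cows in late lactation, with mastitis (an inflammation of the udder) and without it. There was 1 array of total RNA for mastitis tissue and 1 for normal tissue. The design lists 3 cows per condition, and which cow or cows each array holds is not given. By the methods the cows with mastitis had been given antibiotics but the healthy ones had not, and disease therefore cannot be told apart from treatment. Without a replicate array no difference below has a p-value or an error over cows, and the SD given for some genes is over probes of the gene and technical.

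In the MAPK cascade a kinase of the MAP3K family phosphorylates a kinase of the MAP2K family, which in turn phosphorylates and activates a MAP kinase. The ERK branch answers mainly to growth factors, whereas the JNK and p38 branches answer to stress, bacterial products and inflammatory cytokines. MAP kinase phosphatases of the DUSP family remove both phosphates from the activation loop and so switch the MAP kinases off, and several of them are themselves early response genes. The activity of these enzymes is set largely by phosphorylation, which an RNA array does not measure.

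Each probe was read as its net signal, the spot intensity after the background had been subtracted. The signals of each array were divided by the 75th percentile of that array, 210 for mastitis and 128 for normal, and a log2 ratio is the scaled mastitis signal over the scaled normal signal. Equal net signals therefore correspond to a log2 ratio of -0.71. A probe was called well above background if it passed a net signal of 7.10 on the mastitis array or 8.74 on the normal array and the scanner software had located its spot. A gene is given as the mean log2 ratio over those of its probes that passed on both arrays. Over all 12245 genes measured in this way the median log2 ratio was -0.15, and 61.4% of them lay below 0. This median moved to 0.12 with scaling on spike-in probes and to 0.56 without scaling, so small ratios are described by their distance from it rather than as higher or lower. The SD over probes of a gene was 0.45 on the log2 scale across all genes and 0.41 across the members with several probes.

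Milk protein genes bore out the label mammary tissue, most clearly on the normal array. The epithelial keratin KRT19 was bright on both arrays, at median net signals of 9577.5 (mastitis) and 7858.5 (normal). The arrays differed in cell markers. Of 10 luminal epithelial markers 9 were measured, with a median log2 ratio of 0.12. Their summed scaled levels were 135 (mastitis) and 186 (normal), and ELF5 was lowest at -2.22. Medians were 0.23 for myoepithelial, 0.27 for endothelial and -0.40 for B and plasma cell markers. The 5 measured of 6 milk protein genes of secreting epithelium had a median log2 ratio of -7.45, with a summed scaled level of 95.1 on the mastitis array against 2962 on the normal array, and LALBA was below background on the mastitis array. Of 10 neutrophil markers 8 were measured and 6 were lower by 2-fold or more on the mastitis array, with a summed scaled level of 20.6 against 52.8, and CXCR2 and MPO were not above background on either array. Of 7 adipocyte markers 4 were measured and 3 were lower by 2-fold or more, with a median of -1.62, while FABP4 (0.12) kept the sums at 63.3 and 63.8. The 11 T and NK cell markers had a median of 0.03, with 8 of 11 above 0, and their sums of 54.3 and 75.1 were made up mostly of CD4, at net signals of 7704 and 7532 (log2 ratio -0.68). The 4 markers of all leukocytes had a median of 0.08, and their sums of 23.2 and 27.4 included LCP1 at -0.66 beside PTPRC at 0.19, ITGB2 at 0.18 and CORO1A at -0.02. Of 7 macrophage markers 5 were measured, with a median of 0.44 and sums of 20.3 and 13.9, and the 9 fibroblast markers had a median of 0.49 and sums of 208 and 148. Each sum takes the brightest probe of every marker on the array. The part of these markers in the values of the members was not tested, and in bulk tissue fewer cells of a type cannot be told apart from less RNA per cell.

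Most members were present and close to equal on both arrays. Of the 66 members, 53 had a probe well above background on both arrays, as did 72.2% of all genes. A further 12 had no such probe on either array, and DUSP4 was measured on the normal array alone. Among the 53, 2 were higher by 2-fold or more on the mastitis array, namely DUSP10 and DUSP26, against 2.26% of all measured genes. A further 6 were at least 2-fold lower, namely MAP3K9, MAPK8IP2, DUSP23, MAP3K20, DUSP2 and MAPK12, against 9.15% of all measured genes. The other 45 lay within 2-fold. The median log2 ratio of the members was -0.20, which was 0.05 below the median of all genes, and the middle 50% of them spanned -0.54 to 0.04, compared with -0.52 to 0.19 for all genes. At 1.5-fold the counts were 3 higher, against 7.66% of all measured genes, and 12 lower, against 21.5%. By these counts the members as a whole resembled the rest of the array.

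The same held for single probes. Of the 144 member probes, 99 were well above background on both arrays, as were 63.9% of all probes. A further 12 passed on the mastitis array alone (6.32% of all probes), 1 on the normal array alone (3.13%), and 32 on neither. Among the 99, 2 were higher by 2-fold or more on the mastitis array (2.89% of all measured probes) and 10 were lower (8.64%). The rank correlation of the net signals between the arrays was 0.97 over the member probes and 0.95 over all probes, which share a library and are not replicates.

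The ERK kinases carry the growth factor branch. For MAPK3 (ERK1) the probes gave net signals of 912, 20 and 5801 on the mastitis array against 649, 17 and 4813 on the normal array, a mean log2 ratio of -0.38 (SD 0.14, 3 probes). All 3 MAPK3 probes thus lay below the median of all genes, and the spread among them was small. MAPK7 (ERK5, a larger kinase with its own upstream MAP2K) read 575 and 503, a log2 ratio of -0.52. None of the ERK kinases was 2-fold apart.

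The JNK kinases phosphorylate JUN and other transcription factors under stress, and 2 of 3 were measured, both near the median of all genes. MAPK9 (JNK2) read 458 and 156 on the mastitis array against 283 and 90 on the normal array, a mean log2 ratio of 0.03 (SD 0.07, 2 probes). MAPK8 (JNK1) read 174 and 14 against 79 and 12, and its probes gave log2 ratios of 0.42 and -0.49. The MAPK8 probes thus stood on either side of 0, and their mean of -0.03 has an SD of 0.65. MAPK10 (JNK3), which is known mainly from brain, had 4 probes with net signals of 0 to 4, all below the detection limit on both arrays.

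The p38 kinases drive production of inflammatory cytokines, and by mean ratio the 4 genes fell into a pair far below the median of all genes and a pair nearer to it. MAPK12 (p38 gamma) read 253 on the mastitis array against 337 on the normal array, a log2 ratio of -1.13, or 2.19-fold lower. MAPK13 (p38 delta) read 697 and 221 against 944 and 238, with log2 ratios of -1.15 and -0.82 and a mean of -0.99 (SD 0.23, 2 probes), just inside the 2-fold limit. These 2 kinases share a branch of the p38 family in sequence, and for MAPK13 and MAPK12 every measured probe had a lower net signal on the mastitis array even before scaling. MAPK14 (p38 alpha), the broadly expressed form, read 379 and 454 against 229 and 396, with log2 ratios of 0.01 and -0.52. MAPK11 (p38 beta) was dim, at 15 and 9, a log2 ratio of 0.02. Moving its signals by 1 SD of the negative controls gave -0.63 to 0.76, so the place of MAPK11 in the nearer pair is uncertain. In the RefSeq annotation of the cattle genome MAPK14 lies next to MAPK13 and MAPK12 next to MAPK11. By mean ratio each neighbouring pair held 1 gene far below the median of all genes and 1 nearer to it. The nearer place is uncertain for both MAPK11 and MAPK14, as the brighter MAPK14 probe gave -0.52. The median of the 4 was -0.62, or 0.47 below that of all genes, and between 0.38 and 0.93 below it under the 15 settings of background, scaling and filtering compared. Settings that change only the scaling factor move all genes alike, so they could not change this distance.

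The atypical MAP kinases are not switched on by the usual MAP2K enzymes. MAPK6 (ERK3) read 204 and 143 on the mastitis and normal arrays, a log2 ratio of -0.20, and MAPK15 (ERK8) read 79 and 55, a log2 ratio of -0.19. Both lay close to the median of all genes. MAPK4 (ERK4) was below the detection limit on both arrays with both of its probes.

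All 6 MAP2K genes were measured, none was 2-fold apart, and their median was -0.23. MAP2K1 (MEK1), which activates the ERK kinases of the growth factor branch, read 727, 157 and 98 on the mastitis array against 682, 151 and 90 on the normal array. Its 3 probes gave a mean log2 ratio of -0.62 with an SD of only 0.03, the lowest of the MAP2K genes. MAP2K2 (MEK2), with the same substrates, read 132, 90 and 25 against 95, 81 and 27, a mean of -0.54 (SD 0.29, 3 probes). The enzymes of the p38 branch lay closer to the median of all genes. MAP2K3 read 340 and 230, a log2 ratio of -0.15, and MAP2K6 read 64, 33 and 13 against 52, 22 and 10, a mean of -0.29 (SD 0.15, 3 probes). MAP2K4, which serves JNK, read 166 and 775 against 103 and 396, a mean of 0.11 (SD 0.20, 2 probes), the highest of the 6. MAP2K5, the activator of ERK5, read 72 and 49, a log2 ratio of -0.16. MAP2K4 and MAP2K1 were picked here as the highest and lowest of these genes, and the distance between them has no replicate check. The SD over probes is technical and does not measure it.

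The MAP3K genes stand at the entry of the cascade, and 12 of 15 were measured. Their median of -0.17 lay 0.02 below that of all genes, and 2 of them were lower by 2-fold or more on the mastitis array. MAP3K9 (mixed lineage kinase 1, which feeds the JNK branch) had the largest difference of all members. Its measured probe read 81 on the mastitis array against 376 on the normal array, a log2 ratio of -2.93, or 7.62-fold lower. The other MAP3K9 probe read -2 and 4, below the detection limit on both arrays, so this difference rests on 1 probe. MAP3K20 (ZAK, a kinase that responds to stalled ribosomes) read 9 and 13, close to the detection limits, a log2 ratio of -1.24. A probe named ZAK that the naming rule did not take read 103 and 52, a log2 ratio of 0.27, so the direction of this gene differed between its probes.

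The measured MAP3K genes best known from innate immune signalling lay from 0.06 below to 0.34 above the median of all genes, all within 2-fold. MAP3K7 (TAK1), which links Toll-like and interleukin 1 receptors to NF-kappaB, JNK and p38, had 3 measured probes with net signals of 122, 78 and 45 on the mastitis array against 85, 44 and 40 on the normal array. Their log2 ratios were -0.19, 0.11 and -0.54, with a mean of -0.21 (SD 0.33). MAP3K8 (TPL2), which carries Toll-like receptor signals to ERK, read 60 and 32, a log2 ratio of 0.19 and the highest of the group. MAP3K5 (ASK1), a sensor of oxidative stress, read 31 and 138 against 17 and 89, a mean of 0.04 (SD 0.17, 2 probes). MAP3K1 read 989, 42 and 69 against 459, 25 and 43, a mean of 0.13 (SD 0.23, 3 probes).

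MAP3K14 (NIK), the kinase of the non-canonical NF-kappaB pathway, read 9 and 8, with its spot not located on the mastitis array and its signal under the limit on the normal array. MAP3K14 was thus well above background on neither array, nor were MAP3K15 and MAP3K19. A second mixed lineage kinase, MAP3K11, read 92, 35 and 15 against 64, 35 and 23. Its probes ran from -0.19 to -1.33 and gave a mean of -0.75 (SD 0.57, 3 probes), within 2-fold. The remaining 5 measured MAP3K genes, MAP3K3, MAP3K4, MAP3K6, MAP3K12 and MAP3K13, lay between -0.58 and 0.06.

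The MAP4K genes link receptors to MAP3K enzymes, and all 4 were measured with a median of 0.14, or 0.28 above that of all genes. MAP4K1 (HPK1), which is expressed mainly in blood cells, read 165 and 96 on the mastitis array against 94 and 57 on the normal array, a mean log2 ratio of 0.07 (SD 0.04, 2 probes). MAP4K5 was highest, at 159, 137 and 22 against 66, 57 and 18, a mean of 0.23 (SD 0.56, 3 probes). Its brighter probes both gave 0.55 and the dim one gave -0.42. MAP4K3 read 34, 147 and 13 against 16, 67 and 9, a mean of 0.20 (SD 0.34, 3 probes). MAP4K2 was lowest, with a mean of -0.44 (SD 0.31, 4 probes), its brightest probe at 180 and 109 giving 0.01 and the other 3 between -0.53 and -0.71. The group lay between 0.12 and 0.36 above the median of all genes under the 15 settings. Those that change only the scaling factor could not move this distance.

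**Figure D1:**
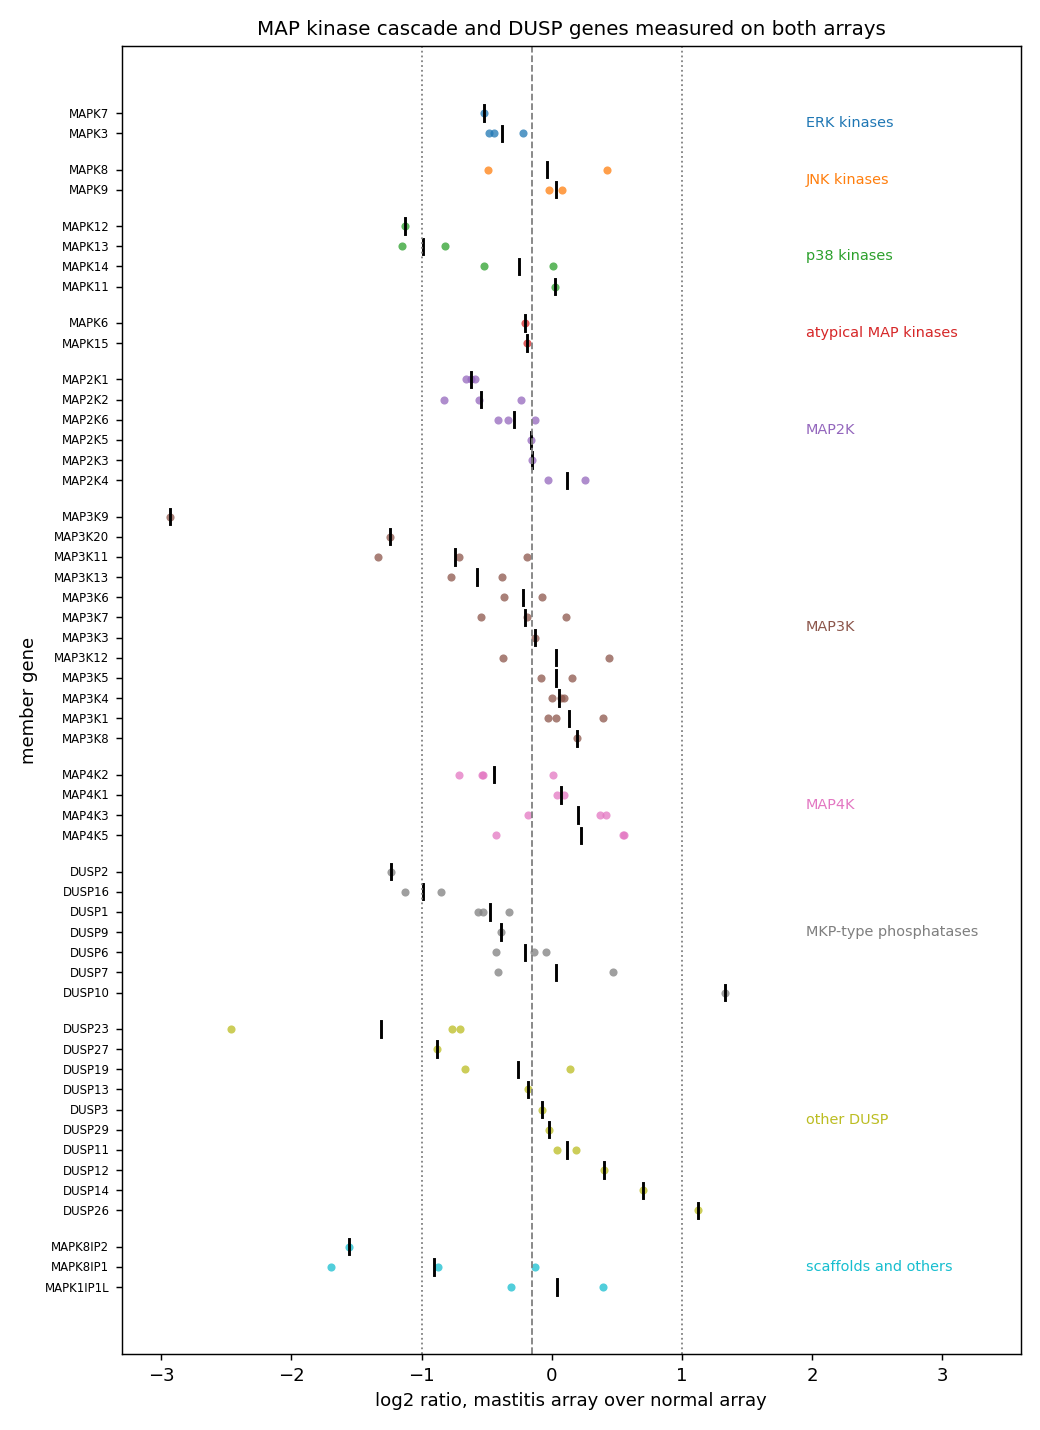
Log2 ratio of the mastitis array over the normal array (x axis) for 52 of the 53 members measured on both arrays (y axis), coloured by role, with dots for single probes and black bars for the mean of a gene. The dashed line lies at the all-gene median (-0.15) and the dotted lines mark 2-fold differences, and MAP3K9 stands apart at -2.93.

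The 10 phosphatases of the MAP kinase phosphatase type, which act directly on MAP kinases, included a member on each side of the 2-fold limit. DUSP10 (MKP5, with JNK and p38 as its substrates) read 70 on the mastitis array against 17 on the normal array, a log2 ratio of 1.33, or 2.51-fold higher. Its other probe read 26 and 7 and passed the detection limit on the mastitis array alone, at least 1.76-fold higher, so both probes lay in the same direction. DUSP2 (PAC1, known from activated lymphocytes and other leukocytes) read 23 and 33, a log2 ratio of -1.24, or 2.35-fold lower.

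DUSP4 (MKP2, a nuclear phosphatase of ERK and JNK) was the 1 member measured on the normal array alone. Its probe read 2 and 12, which puts the mastitis array at least 2.46-fold lower, taking the lowest signal well above background on that array as the floor. A second DUSP4 probe read 13 and 17, but its spot was marked as not found on both arrays.

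DUSP1 (MKP1), an early gene that limits p38 and JNK in inflammation, was bright and within 2-fold. It read 1047, 42 and 1369 on the mastitis array against 918, 38 and 1049 on the normal array, a mean log2 ratio of -0.47 (SD 0.13, 3 probes). DUSP6 (MKP3), the cytoplasmic phosphatase of ERK whose transcription follows ERK activity, read 1495, 22 and 149 against 938, 18 and 100, a mean of -0.20 (SD 0.20, 3 probes). DUSP6 thus lay 0.05 below the median of all genes. DUSP16 (MKP7, with JNK and p38 as substrates) read 112 and 12 against 123 and 16, a mean of -0.99 (SD 0.20, 2 probes), just inside 2-fold. The probes of DUSP7 disagreed, with 216 and 496 against 95 and 402 and log2 ratios of 0.47 and -0.41. DUSP9 read 45 and 36, a log2 ratio of -0.39, and DUSP5 and DUSP8 were below the detection limits on both arrays. The median over the 7 measured phosphatases of this type was -0.39, or 0.24 below that of all genes, and it lay between 0.13 and 0.29 below it under the 15 settings. Here too, settings that change only the scaling factor could not move the distance.

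Of the 14 other DUSP genes, most of them small phosphatases without the kinase-binding domain, 10 were measured with a median of -0.05. DUSP26 read 193 on the mastitis array against 54 on the normal array, a log2 ratio of 1.12, or 2.18-fold higher. Its other probe read 10 and 4 and passed the detection limit on the mastitis array alone, but its lower bound of 0.68-fold sets no direction. With dim probes kept at a common floor the log2 ratio of DUSP26 was 0.56, within 2-fold. DUSP23 had 3 probes that read 541, 137 and 14 against 560, 136 and 47, with log2 ratios of -0.76, -0.70 and -2.46. The mean of -1.31 (SD 0.998, 3 probes) was pulled past 2-fold by the dimmest probe, which was tied to DUSP23 by symbol, and the 2 probes tied to it by accession gave -0.73, within 2-fold. DUSP14, which restrains T cell receptor signalling, was the next highest of the group, at 96 and 36, a log2 ratio of 0.70. DUSP12 followed at 564 and 260, a log2 ratio of 0.40. DUSP3 (VHR), a small phosphatase of ERK and JNK, read 565 and 363, a log2 ratio of -0.08. DUSP11, which acts on RNA rather than on kinases, gave a mean of 0.11 (SD 0.10, 2 probes), and DUSP13, DUSP19, DUSP27 and DUSP29 lay between -0.88 and -0.02. DUSP15, DUSP18, DUSP21 and DUSP22 were well above background on neither array.

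Among the genes that share only the beginning of the symbol, the JNK scaffolds MAPK8IP1 (JIP1) and MAPK8IP2 (JIP2) had low ratios. MAPK8IP2 read 19 and 34, a log2 ratio of -1.55, or 2.94-fold lower on the mastitis array. MAPK8IP1 read 178, 17 and 21 against 352, 19 and 14, with log2 ratios of -1.70, -0.87 and -0.13. These 3 MAPK8IP1 probes thus ranged from more than 2-fold lower to near equality, and their mean was -0.90 (SD 0.78). MAPK8IP3 was below the detection limit on both arrays, and MAPK1IP1L read 674 and 258 against 313 and 195, a mean of 0.04 (SD 0.50, 2 probes).

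**Figure D2:**
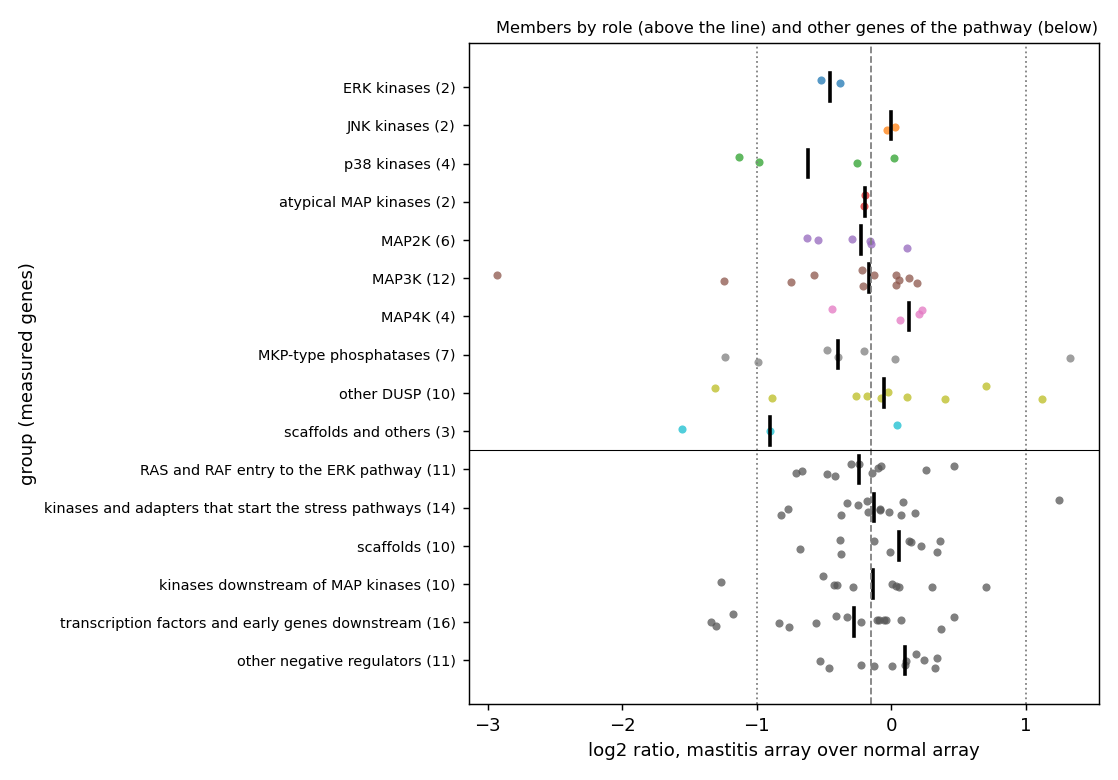
Log2 ratio of the mastitis array over the normal array (x axis) for the measured members by role and for other genes of the pathway by list (y axis, with the number of measured genes), with a dot per gene and a black bar at the median of the group. The median of the p38 kinases was -0.62 and that of the MAP4K genes 0.14, while the dashed line marks the median of all genes at -0.15 and the dotted lines 2-fold differences.

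Many of these differences rest on few or dim probes. Of the 8 members at least 2-fold apart, 7 were among the 23 members with 1 measured probe (30.4%, against 15.4% of all genes with 1 measured probe), and 1 was among the 30 with several (3.33%, against 7.78% of such genes). In 15 of those 30 members the probes differed in sign, whereas this held for 36.2% of all genes with several measured probes. In 21 of the 30 members the probe with the lowest signal had a lower log2 ratio than the brightest, and over all genes this held for 63.2%. The 41 measured member probes below a net signal of 50 on the normal array had a median log2 ratio of -0.39, and the 58 at or above 50 had -0.17. Over all measured probes the medians on either side of this signal were -0.17 and -0.057. When each net signal was moved by 1 SD of the negative controls, MAP3K9 (-2.99 to -2.87), MAPK12 (-1.15 to -1.10), MAPK8IP2 (-1.88 to -1.25), DUSP10 (1.06 to 1.62), DUSP26 (1.03 to 1.22) and DUSP23 (-1.46 to -1.17) remained past 2-fold over the whole range. The ranges of MAP3K20 (-2.03 to -0.54) and DUSP2 (-1.53 to -0.95) did not.

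The calls also depended on how the arrays were scaled and on the background. The split of 2 higher and 6 lower members became 2 and 3 with scaling on the 7 spike-in probes, where 4.90% of all genes were higher and 5.63% lower. It became 4 and 1 without scaling, where DUSP12 and DUSP14 passed 2-fold as well and 20.0% of all genes were higher and 2.64% lower. With the normexp background model, where 0.759% of all genes were higher and 3.27% lower, MAP3K9 alone remained past 2-fold, at -2.20, whereas MAPK12 gave -0.89, DUSP26 0.66 and DUSP10 0.28. The direction of the 8 members stayed as given under each of the 15 settings that measured them, and 2 of them turned only in the deposited value table with its rows as they stand. Every change of scaling factor moved all ratios by less than 2-fold. It therefore could not turn the direction of members chosen as past 2-fold. The ZAK probe at 0.27, which the naming rule did not take, was in none of these settings.

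**Figure D3:**
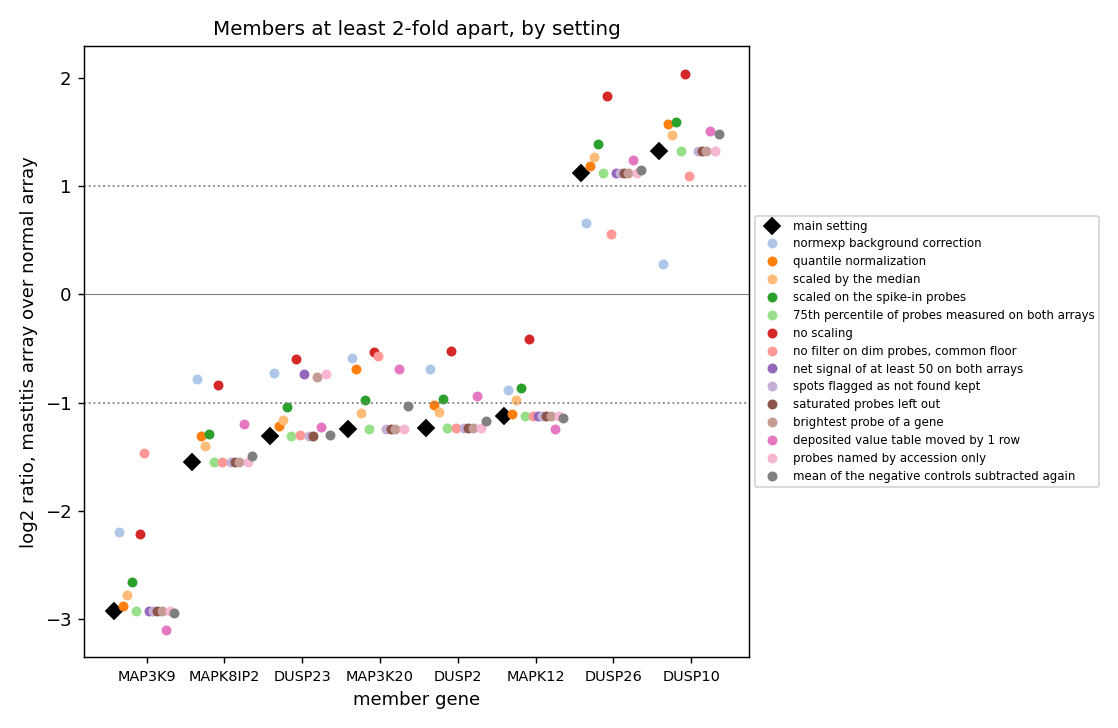
Log2 ratio of the mastitis array over the normal array (y axis) for the 8 members at least 2-fold apart (x axis), with a black diamond for the main setting and a coloured dot for each other setting that measured the gene, and dotted lines at 2-fold. The deposited value table with its rows as they stand is not shown. MAP3K9 lies below the lower dotted line in every setting shown, while every other gene crosses its 2-fold line in at least 1 setting.

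Other genes of the pathway, from lists written from textbook knowledge, were likewise mostly within 2-fold. Of 72 measured genes in the 6 lists, 1 was higher and 4 were lower by 2-fold or more on the mastitis array, beside 2.26% and 9.15% of all measured genes, and their median was -0.12. None of the 11 measured genes of the RAS and RAF entry to the ERK branch, and none of the 10 measured scaffolds, was 2-fold apart. Among the 14 measured kinases and adapters that start the stress branches GADD45A, a stress gene whose protein can activate the MAP3K enzyme MEKK4, had median net signals of 1604.5 and 411, a log2 ratio of 1.25 (SD 0.00, 2 probes), or 2.38-fold higher. Of 10 measured kinases downstream of MAP kinases RPS6KA3 (RSK2, a target of ERK) had 39.5 and 58.0, a log2 ratio of -1.27 (SD 0.03, 2 probes).

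Of 16 measured transcription factors and early genes downstream, 3 were lower by 2-fold or more on the mastitis array, beside 9.15% of all measured genes. FOS, a subunit of AP-1, had median net signals of 289 and 406 and a log2 ratio of -1.34 (SD 0.31). ATF3, a stress gene that partners with JUN, had 400 and 552 and a log2 ratio of -1.18. ELK4, a partner of serum response factor, was dim at 10 and 15, with a log2 ratio of -1.30. None of the 11 measured other negative regulators, among them the Sprouty proteins, was 2-fold apart, and their median was 0.11.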

How the data were processed

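Total RNA of mammary gland was labelled with Cy3 and hybridised to 1 array per condition on a single slide, read in 1 scan. The labels name Agilent Feature Extraction and a miRNeasy kit, the paper an Affymetrix chip and Trizol, and the file headers an Agilent array (design 023647) scanned in GenePix Pro 6.1, which is what the files look like.

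For each spot the authors deposited the 532 nm intensity, less the average of the negative controls and without scaling between arrays, the percent of saturated pixels, and a signal-to-noise score and flag. How the deposited log2 table was made is not given in the sources used here. Its values followed the scanner signals (Spearman 1.00) only after its rows had been moved by 1 probe, against 0.10 with rows as they stand, and it was used as an alternative only.

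Each array held 45220 spots with its controls. Control spots were left out and the remaining spots were averaged to 43653 probes. A probe was well above background if it exceeded the average of 153 negative controls by more than 2.6 SD and its spot had been found, which held for 70.2% of mastitis and 67.0% of normal probes. A floor for a gene measured on 1 array is the lowest signal well above background there, or the probe's own where that is higher. Saturated spots were kept, among them 1 member probe of DUSP1. Probes were named through the RefSeq table of the ARS-UCD2.0 assembly, 124 member probes by accession and 20 by symbol. No test was run, because there is 1 array per condition, and that number limits the precision.

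Genes named are the members at least 2-fold apart or measured on 1 array, and those the study tabulated as changed by 2-fold or more. Of the 9 that the study tabulated so, 8 were measured here. By the mean over probes well above background on both arrays, 0 of them were 2-fold apart. The study also tabulated very low levels, so its measure differed. MAPK13 came nearest at -0.99, and passed 2-fold by its brightest probe (-1.15) and with the deposited table moved by 1 row (-1.05). It also did so, at -1.001, when control signal was taken off a second time. With the table's rows as they stand MAP2K2 (1.19), MAP2K3 (-5.47) and MAPK8 (-1.005, against the study's direction) passed it instead. Also named are the highest and lowest of each role group, genes of disagreeing probes with 1 past 2-fold, and pathway genes at least 2-fold apart. Further members are given for their role, and the values of 1 member gene are not reported here, though it is in the counts and medians of all members and is left out of the plots by gene and by role. The members and lists were chosen with earlier results of these data known. Scaling and summaries used Python 3.11.15, numpy 2.4.6, pandas 2.3.3 and scipy 1.17.1, and the normexp alternative (offset 50) used limma 3.58.1 in R 4.3.3. The script was tested on simulated data.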

Additional observations from a re-analysis of the deposited data

How the results depend on the processing

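The counts of 2 members higher and 6 lower and the median of -0.20 moved with several choices, and the cause was not tested. The normexp background left 0 higher and 1 lower (0.759% and 3.27% of all genes). Scaling on spike-in probes gave 3 lower (5.63% of all genes) and a median of 0.065, and no scaling gave 4 higher (20.0%), 1 lower (2.64%) and a median of 0.51, with the median of all genes at 0.12 and 0.56. Keeping dim probes at a common floor gave 1 higher (1.32%) and a median of -0.040 over 66 members, and leaving out probes under a net signal of 50 on either array gave 1 higher (2.37%) and 3 lower (6.17%) among 41 members. A 1.5-fold limit gave 12 lower, where 21.5% of all genes lay, and a 3-fold limit gave 0 higher and 1 lower. The deposited value table with its rows as they stand gave 7 higher (12.3%) and 9 lower. It turned DUSP10 to -0.27 and MAP3K9 to 6.52. With its rows moved by 1 the table gave 2 higher and 5 lower. The other settings, among them the mean of the negative controls subtracted again, which was chosen after seeing the data and gave 2 higher and 7 lower, stayed within 1.5 times the main counts. Counts given here without a percentage have no share of all genes beside them and are not read as particular to the members. The median of the members lay 0.036 to 0.085 below that of all genes in every setting but the table as it stands. Settings that change only the scaling factor could not move this distance. Of 398 values of single named members under another setting, 267 moved by less than the SD over replicate spots (0.16), 129 moved by more and 2 reversed. No paired analysis was possible because there is 1 array per condition. Signals of MAP3K20, DUSP2 and DUSP4 lie near the detection limits, which limits the precision of those ratios.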
